A study of Mus musculus with 36 samples.

Results

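The comparison described here is the effect of homocysteic acid (HCA) on gene expression in mouse cortical neurons, pooled over 3 levels of sodium selenite. It takes in all 36 RNA-seq libraries of the series: 18 from cultures given 5 mM HCA, and 18 from cultures without it. The cells were primary cortical neurons of CD1 mice, an outbred strain, prepared from embryos at E15 (embryonic day 15), kept in culture for 24 h and then treated for 6 h. The groups without HCA were an untreated control, sodium selenite at 0.1 and sodium selenite at 1, and the other 3 groups received HCA alone or together with either selenite dose, with 6 libraries in each group. The unit of these doses is mM on the samples but micromolar in the series text, so none is written here. Each group holds 1 library from each of 6 culture batches, so every HCA library has a partner without HCA from the same culture batch and at the same selenite level, which makes 18 pairs. How many embryos or litters made up a culture batch is not given in the labels, and each library counts as a replicate after the batch means are removed, so p-values measure the remaining spread among the 36 libraries. The sample labels spell HCA out as homocysteic acid, while the series text calls it a ferroptosis inhibitor.

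Homocysteic acid is an excitatory analogue of glutamate. It can act on glutamate receptors, and it competes with cystine for uptake through the cystine/glutamate exchanger, so that cells run short of cysteine and glutathione. Shortage of an amino acid leaves its tRNA uncharged and activates the kinase Gcn2, which slows translation in general while raising that of the transcription factor Atf4, whose targets include aminoacyl-tRNA synthetases, amino acid transporters and enzymes of amino acid synthesis. Depolarisation and calcium entry in neurons act through the transcription factors CREB, SRF and MEF2 on another set of genes, the immediate early genes such as Fos, Npas4 and Nr4a1 and later ones such as Bdnf. Selenite supplies selenium for selenoproteins, among them the glutathione peroxidases.

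The deposited table holds estimated counts, which summed to between 34.3 and 56.9 M per library. Ribosomal RNA took 1.70% to 88.6% of a library, so the counts left for other transcripts ranged from 4.95 to 52.6 M. That share was 44.9% ± 26.6 (SD, n = 18) with HCA and 57.4% ± 29.4 without, and lower with HCA in 12 of 18 pairs, a difference within the spread between libraries (two-sided permutation test, p = 0.259). The gap lay mainly at selenite 0, with 45.7% ± 30.0 under HCA and 76.2% ± 15.2 in control (SD, n = 6 each). With and without HCA it was 55.8% and 58.5% at selenite 0.1, and 33.4% and 37.4% at selenite 1. Levels are given in CPM, the counts of a row per 1e+06 counts (1 M) of library size, scaled by edgeR's TMM method. They depend on transcript length, so they are compared between libraries and not between genes. The TMM factors were far apart, from 0.0309 in selenite 0.1 replicate 5 to 4.19 in replicate 1 of HCA with selenite 1. Scaled library sizes ran from 1.34 to 224 M, so all CPM values rest on large corrections. Control replicates 5 and 6 and selenite 0.1 replicate 5 had the lowest median correlations with the other libraries (0.828, 0.887 and 0.748, against up to 0.964), all among the libraries without HCA, so the main counts are also given without them. Row identifiers of the table appear to be displaced by 1 place in the order of transcript identifiers: each row seems to hold the transcripts that stand before those of its labelled gene. At that displacement 7 rows whose identifier has 1 transcript would hold an odorant or pheromone receptor, against 97 to 181 at 12 other displacements. Gene names below rest on this inference, and the symbol of the deposited row stands in parentheses beside most genes. A gene was named only through a row whose coding transcripts come from that gene alone, which gave 7127 tested genes among 25588 tested rows. Such a row can hold only part of the transcripts of its gene, so its counts are not the level of the whole gene. Of the 35 genes named first by p-value, the rows of 17 hold no other transcript, and those of 18 also hold non-coding transcripts of other genes.

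HCA changed 571 of the 25588 rows, 2.23% of those tested (edgeR quasi-likelihood test with culture batch as a block, adjusted p under 0.05). Of these, 386 rows (1.51%) rose and 185 (0.723%) fell, and 567 of the 571 had the same sign at all 3 selenite levels. Among the 7127 named genes 198 passed (2.78%), 126 higher (1.77%) with a median log2 fold change of 0.71 and 72 lower (1.01%) with a median of -0.62. The median over all 7127 was 0.04. Changes below are log2 fold changes of 18 HCA libraries against 18 without it, given with their standard errors, and p-values are adjusted over all rows. A change of more than 2-fold was seen in 37 of the higher and 13 of the lower genes. Single selenite levels gave fewer rows: 74 (0.289%) passed at selenite 0, 54 (0.211%) at 0.1 and 61 (0.238%) at 1, and 468 of the 571 passed at no single level. At selenite 0, 66 rose (0.258%) and 8 fell (0.0313%), at 0.1, 48 rose (0.188%) and 6 fell (0.0234%), and at 1, 42 rose (0.164%) and 19 fell (0.0743%). In 28 rows (0.109%) every HCA library lay above every library without HCA, and in 0 rows did every HCA library lie below. The 28 hold 11 named genes, Aars, Cars, Ccdc184, Eif4ebp1, Gpt2, Hsd17b12, Nfil3, Npas4, Nr4a1, Siah2 and Slc3a2. HCA was higher in 18 of 18 pairs in 94 rows (0.367%) and lower in 18 of 18 in 10 (0.0391%). The count of 571 moved by more than 1.5 times without culture batch 1 (240 rows), without culture batch 2 (359) and without the 3 distant libraries (916), and it was 335 with each of the 18 pairs as a block. Of the 571, 67.6% were higher, against 55.1% of 650 with DESeq2-type size factors and 55.0% of 916 without the distant libraries.

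Genes known to respond to Atf4 were among those that rose. Of 33 such genes on a list, 12 were tested through a row of their own, and 7 rose and 0 fell, against 1.77% of all named genes higher and 1.01% lower. The median log2 fold change of the 12 was 0.67, against 0.04 over all, and the medians within single culture batches ran from 0.29 to 0.93. Eif4ebp1 (Chrna6; chr8:27260329-27276674, plus strand) encodes a protein that binds the cap-binding initiation factor and holds back translation. Its lowest, median and highest levels were 3.35, 4.32 and 4.85 CPM in control, 2.24, 3.56 and 3.86 in selenite 0.1 and 3.04, 3.92 and 5.92 in selenite 1. With HCA they were 7.59, 11 and 17.5 CPM without selenite, 7.40, 10.7 and 15.4 at selenite 0.1 and 7.52, 12.6 and 15.1 at selenite 1. It rose by 1.51 ± 0.13 (adjusted p = 1.71e-09), and no HCA library reached down to the others. Stc2 (Vmn2r81; chr11:31357307-31370074, minus strand) encodes stanniocalcin-2, a secreted glycoprotein. Control libraries had a lowest, median and highest level of 0.409, 0.563 and 0.812 CPM, those with selenite 0.1 of 0.343, 0.682 and 1.49, and those with selenite 1 of 0.589, 0.718 and 0.986. Addition of HCA gave 1.56, 2.45 and 3.03 CPM, and 1.47, 1.95 and 3.41 and 2.26, 2.71 and 2.96 beside selenite 0.1 and 1. It rose by 1.86 ± 0.16 (adjusted p = 1.71e-09) and was higher in 17 of 18 pairs, the highest library without HCA, at 1.49 CPM, lying just above the lowest with it.

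Enzymes of serine, proline and alanine metabolism were among those that rose. Shmt2, the mitochondrial serine hydroxymethyltransferase that feeds one-carbon units, rose by 0.96 ± 0.12 (Inhbc, adjusted p = 3.92e-06), with 12.4 to 44.1 CPM (median 21.3) in the libraries without HCA and 31.2 to 60.5 CPM (median 41) in those with it. Aldh18a1, which makes the proline precursor from glutamate, rose by 0.88 ± 0.12 (Tctn3) in 18 of 18 pairs. Gpt2, the mitochondrial alanine aminotransferase, rose by 0.68 ± 0.08 (Dnaja2), with 12.5 to 21.1 CPM (median 18.4) in the libraries without HCA and 21.8 to 38.1 CPM (median 28.3) in those with it, with no overlap between the sides. Ddit4, an inhibitor of mTORC1 signalling induced by stress, rose by 0.67 ± 0.12 (Dnajb12, adjusted p = 0.00158), and Jdp2, a bZIP repressor, by 1.27 ± 0.30 (Ptprq, adjusted p = 0.0152). The call of Jdp2 was lost without culture batch 1, 3 or 4 and without the block (adjusted p up to 0.106). The other 5 tested members did not pass. They include Atf5, a bZIP factor itself translated under stress, at 0.07 ± 0.13 (Cpsf2), Cbs, which makes cystathionine on the way to cysteine, at -1.15 ± 0.61 (Gm10312), and Pycr1, the last enzyme of proline synthesis, at 0.30 ± 0.13 (Myadml2).

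Cytosolic aminoacyl-tRNA synthetases, which charge tRNAs for translation, were higher for some amino acids and not for others. Of 10 tested on a list of 20, 4 rose and 0 fell, with a median of 0.37. Of all named genes 1.77% rose and 1.01% fell. Cars (Cd164l2; chr7:143557230-143600090, minus strand) charges the cysteine tRNA and had the smallest p of all named genes. Without HCA, the lowest, median and highest libraries stood at 7.41, 11.6 and 16.2 CPM (control), 9.72, 12.6 and 16 (selenite 0.1) and 12.4, 13.2 and 14.4 (selenite 1). In the HCA groups these values were 27, 31.4 and 35.1 CPM (no selenite), 24.7, 30.1 and 34.8 (selenite 0.1) and 29, 30.5 and 32.6 (selenite 1). The sides did not overlap, and the rise of 1.30 ± 0.07 (adjusted p = 2.96e-13) lay between 1.12 and 1.43 in every culture batch. Aars, for alanine, rose by 0.91 ± 0.09 (Cdh15, adjusted p = 3.11e-08), with 44.1 to 117 CPM (median 80.3) in the libraries without HCA and 135 to 172 CPM (median 149) in those with it, again without overlap. Iars, for isoleucine, rose by 1.11 ± 0.26 (Mnd1, adjusted p = 0.0139) in 18 of 18 pairs, and Lars, for leucine, by 0.44 ± 0.11 (Grxcr2, adjusted p = 0.0309). Lars lost its call in 9 of 17 alternatives and Iars in 3 of 17. Dars, for aspartate, stood at -0.33 ± 0.12 (Rgs18, adjusted p = 0.166) and Hars, for histidine, at 0.20 ± 0.08 (Zmat2, adjusted p = 0.227). The members with the largest p in rows of their own were Mars at 0.39 ± 0.24 (Tfap2d), Vars at 0.34 ± 0.29 (Gm20530) and Qars at -0.48 ± 0.44 (Gm6858). Of 6 tested mitochondrial synthetases on a list of 17, 0 rose and 1 fell: Cars2, which charges the cysteine tRNA in mitochondria, fell by 0.88 ± 0.15 on the log2 scale (Prl3a1, adjusted p = 6.85e-04) and was lower in 17 of 18 pairs. The cytosolic and the mitochondrial cysteinyl-tRNA synthetase thus passed the test in opposite directions. Fars2 at 0.11 ± 0.12 (Ly86), Iars2 at -0.08 ± 0.14 (Mark1) and Rars2 at -0.05 ± 0.12 (Slc35a1) had the largest p of that list.

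Amino acid transporters moved in both directions, with 2 of 9 tested members of a list of 20 higher and 2 lower (median 0.28). Of all named genes 1.77% were higher and 1.01% lower. Slc3a2, which supplies the heavy chain of both the cystine/glutamate exchanger and the carriers of large neutral amino acids, rose by 0.76 ± 0.07 (Nxf1, adjusted p = 6.12e-09). It stood at 23.2 to 39.5 CPM (median 34.8) without HCA and 46.6 to 67.1 CPM (median 57.1) with it, with no overlap. Slc7a3, a transporter of cationic amino acids, ranged from 0 to 1.43 CPM (median 0.307) without HCA, with 0 counts in 3 of 18 libraries (Olfr980). With HCA its range was 0.950 to 5.03 CPM (median 3.11). It was higher in 18 of 18 pairs and its fitted change was 3.25 ± 0.44 (adjusted p = 1.98e-05). The members that fell were Slc1a3 and Slc1a2, the glutamate transporters of astrocytes, at -0.70 ± 0.16 (Msh6, adjusted p = 0.0119) and -0.50 ± 0.13 (Ifi204, adjusted p = 0.0270). Each of these lost its call in 5 of 17 alternatives (adjusted p up to 0.168 and 0.141). The list members with the largest p were Slc6a9, a glycine transporter, at 1.86 ± 0.74 (Gm9869), Slc1a5, a glutamine transporter, at 0.26 ± 0.13 (Ceacam15), and Slc7a10 at -0.33 ± 0.48 (Evx2).

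Many rows with a listed gene also hold coding transcripts of other genes, and the values of such rows belong to no single gene. Some of these genes have a row of their own as well. Of 846 such rows with a list or marker gene 75 passed (8.87%), 62 of them higher (7.33%), against 2.62% and 1.83% of all 11395 shared rows. The row shared by Atf4, Pcsk1 and Npr2 had the smallest p among them, at 1.43 ± 0.06 (Rhobtb3) (adjusted p = 1.47e-15). Pcsk1 is on the list of activity-induced genes described below, so the rise of this row cannot be assigned to Atf4. Several rows with enzymes of amino acid synthesis passed as higher. In 18 of 18 pairs this held for the row of Asns, the asparagine synthetase, with Adipoq and Dap3 at 1.58 ± 0.09 (Dlx6), that of the folate enzyme gene Mthfd2 with Tctex1d4 at 1.35 ± 0.08 (Kit), and that of Psph, the last step to serine, with Arpp21 and Zfp263 at 1.01 ± 0.11 (Rhof). In 17 of 18 pairs it held for the row of Psat1, an earlier step to serine, with others at 0.46 ± 0.09 (Cndp2), that of Got1, an aspartate aminotransferase, with Zfp281 at 0.46 ± 0.09 (Cutc), and a shared row of Aldh18a1 at 1.07 ± 0.20 (Aste1). The row of Pck2, a mitochondrial phosphoenolpyruvate carboxykinase, with Impg1 stood at 1.67 ± 0.12 (Trem1). Among transporters, the row of Slc7a5, the light chain for large neutral amino acids, with Zfp637 stood at 1.33 ± 0.08 (Slc19a3), and that of Slc7a1, a cationic amino acid transporter, with Gm3012 at 1.25 ± 0.11 (Hsd17b13). Stress regulators were present as well, in the rows of Trib3 with Sult4a1 at 2.47 ± 0.28 (Bcdin3d), of Chac1, which breaks down glutathione, with Zbtb20 at 1.54 ± 0.14 (Atrn), and of Ddit3 with Pgbd5 at 0.92 ± 0.14 (Mbd6). Further synthetase rows, each with other genes, passed as higher: those with Gars (0.77 ± 0.08), Nars (0.81 ± 0.09), Tars (0.61 ± 0.11) and Yars (0.77 ± 0.07), a shared row of Mars (1.57 ± 0.23), 2 of Sars (0.42 ± 0.07 and 0.45 ± 0.10) and 1 of the mitochondrial Sars2 (0.51 ± 0.13).

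Atf4 binds composite C/EBP-ATF response elements, whose core was searched as TGATGNAA on both strands in the promoters of RefSeq (GRCm38.p6), each of 250 bases before and 50 from the transcript start. Of the 13 higher members of the Atf4, cytosolic synthetase and transporter lists, 9 had promoters in that table, and the core was in 3 of their 11 promoters (27.3%). It was in 2.45% of the 7508 promoters of tested genes, 4.00% of the 125 of higher genes and 3.97% of all 32851, and a match is a description and not a measured site. The lists hold kinds of gene already known as Atf4 targets, so the 27.3% describes the lists and not the response to HCA. The share in list members that did not rise was not taken. The bases from -150 to 19 of those 3 promoters, where 0 is the first transcribed base, are printed to show where the core lies in genes that rose together. Capitals mark the core on either strand. Aars holds it at -112 and again at 9, Iars at 7 and Jdp2 at -33.
Aars (chr8:111033692-111033861, plus strand): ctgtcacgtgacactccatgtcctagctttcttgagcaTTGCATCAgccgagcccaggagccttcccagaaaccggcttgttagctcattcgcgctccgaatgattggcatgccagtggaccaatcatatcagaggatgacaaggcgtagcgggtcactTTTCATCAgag
Iars (chr13:49681980-49682149, plus strand): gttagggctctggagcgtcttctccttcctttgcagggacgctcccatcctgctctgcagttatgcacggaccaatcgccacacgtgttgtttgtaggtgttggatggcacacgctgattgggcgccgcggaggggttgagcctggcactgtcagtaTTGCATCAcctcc
Jdp2 (chr12:85599266-85599435, plus strand): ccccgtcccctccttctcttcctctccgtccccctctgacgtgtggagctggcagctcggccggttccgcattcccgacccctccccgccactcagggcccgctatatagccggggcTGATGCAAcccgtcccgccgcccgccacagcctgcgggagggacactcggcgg

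Genes that neuronal activity induces rose as well. Of 35 on a list 19 were tested, 10 rose and 0 fell, with a median log2 fold change of 0.91 and medians of 0.62 to 1.44 within single culture batches. Of all named genes 1.77% rose and 1.01% fell. Npas4 (chr19:4984355-4990316, minus strand) encodes a transcription factor specific to active neurons. Its lowest, median and highest levels were 0.271, 0.561 and 2.28 CPM in control, 0.175, 0.452 and 1.29 in selenite 0.1 and 0.151, 0.290 and 0.389 in selenite 1. With HCA they were 2.75, 5.19 and 12.7 CPM without selenite, 2.89, 3.70 and 11.3 at selenite 0.1 and 2.43, 3.74 and 10.5 at selenite 1. It rose by 3.56 ± 0.25 (adjusted p = 5.89e-11), with no overlap between the sides. Nr4a1 (Krt88; chr15:101254269-101274795, plus strand) encodes an orphan nuclear receptor and classic immediate early gene product. Control libraries had a lowest, median and highest level of 0.291, 0.891 and 1.12 CPM, those with selenite 0.1 of 0.395, 0.733 and 1.39, and those with selenite 1 of 0.396, 0.846 and 1.10. Addition of HCA gave 3.59, 5.88 and 15.7 CPM, and 3.22, 5.44 and 14.5 and 2.46, 4.27 and 14.1 beside selenite 0.1 and 1. It rose by 2.94 ± 0.23 (adjusted p = 4.68e-10), again with no overlap, and culture batch 5 gave the highest library of each HCA group.

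Other members of the activity list rose with them. Fosl2, a subunit of the AP-1 factor, rose by 1.41 ± 0.15 (Rbks, adjusted p = 1.17e-07), with 2.24 to 12.1 CPM (median 5.78) in the libraries without HCA and 11.6 to 29.2 CPM (median 15.2) in those with it. Per1, a clock gene that calcium and cAMP also induce, rose by 1.82 ± 0.28 (Vamp2, adjusted p = 1.37e-04), with 0 to 3.55 CPM (median 1.50) in the libraries without HCA, with 0 counts in 3 of 18 libraries, and 1.93 to 8.64 CPM (median 3.94) in those with it. Nfil3, a bZIP repressor, rose by 0.91 ± 0.08 (C330011M18Rik, adjusted p = 1.89e-09) without overlap, with 12.6 to 19.8 CPM (median 16.2) in the libraries without HCA and 22.2 to 39.9 CPM (median 29) in those with it. Secreted products were among them. Scg2, the neuropeptide precursor secretogranin, rose by 2.19 ± 0.30 (Gm29320, adjusted p = 2.04e-05), with 0 to 19.4 CPM (median 4.54) in the libraries without HCA and 12.7 to 35.2 CPM (median 16.6) in those with it. Nptx2, a secreted pentraxin that clusters AMPA receptors, rose by 0.81 ± 0.15 (1110038F14Rik, adjusted p = 0.00188). Fosb, Bdnf and Vgf passed through rows of their own with very low counts. Fosb, an AP-1 subunit, had 26 counts over the 18 libraries without HCA, 16 of which held 0, and 899 over the 18 with it (Klc4, adjusted p = 7.76e-04). Bdnf, the neurotrophin gene, had 10 counts without HCA and 359 with it (Gm5105, adjusted p = 1.64e-04). Vgf, a neuropeptide precursor, had 160 and 968 (Gm29301, adjusted p = 0.0168) and its call was lost without the block and without culture batch 1, 2 or 4.

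The remaining 9 tested activity genes did not pass. Arc, a synaptic immediate early gene, stood at -0.13 ± 0.35 (Rpl24), Homer1, a scaffold of the postsynaptic density, at 0.27 ± 0.33 (4921509C19Rik), and Crem, a CREB family factor, at -0.10 ± 0.34 (Gnb4). Egr2 was at 0.24 ± 0.14 (Ptp4a1), Ier5 at -0.10 ± 0.09 (Olfr94) and Btg2 at -0.08 ± 0.08 (Tns3). Rows shared with other genes add Fos, with Bfsp2, at 2.71 ± 0.16 (Erg28) (adjusted p = 1.15e-12), and a row of Vgf with Gm16286 and Clec2g at 2.08 ± 0.16 (Fbln2), both higher in 18 of 18 pairs. A row of Bdnf with Ranbp3l, Epo and Mia2 holds 11 coding transcripts. It stood at 1.92 ± 0.40 (Bdnf, adjusted p = 0.00529 in the pooled edgeR test), with a median of 0.465 CPM without HCA and 2.31 CPM with it. The row of Junb with others stood at 0.87 ± 0.13 (Espl1), that of Nr4a2 with others at 1.15 ± 0.28 (Gpd2) and that of Nr4a3, Hk1 and Pgls at 1.41 ± 0.35 (Erp44). Receptors for glutamate and GABA mostly did not pass, with 2 of 14 tested members of a list of 28 higher and 0 lower. Among them was Gabbr1, a GABA-B receptor subunit, at 0.31 ± 0.08 (Gm20471, adjusted p = 0.0240). Gabbr1 lost its call in 5 of 17 alternatives. Grin1, the obligatory NMDA receptor subunit, stood at 0.24 ± 0.24 (Arl6ip6) and Grin2b at -0.63 ± 0.25 (Morc2b).

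CREB binds the cAMP response element TGACGTCA, a palindrome that reads alike on both strands. It was in 11 of 125 promoters (8.80%) of the 95 higher genes found in the RefSeq table, against 1 of 60 (1.67%) for lower genes, 2.49% of 7508 for tested genes and 1.79% of all 32851. Among the 15 promoters of the 8 activity-list genes that rose and had an entry, 1 held it, that of Scg2. Genes with the element that no list held include Cartpt, a neuropeptide precursor (log2 1.80 ± 0.30, Ptcd2), Dusp8, a phosphatase of MAP kinases (0.39 ± 0.08, Plekhh1), Chpf (0.50 ± 0.10, Vmn2r93) and Ywhah (0.39 ± 0.08, Hoxb1), chosen for this motif after their values were seen. The 3 promoters printed show the element in a secretory granule protein, a neuropeptide and a phosphatase gene, at -68 in Scg2, at -112 in Cartpt and at -107 and -63 in Dusp8. They cover bases -150 to 19, with the element in capitals.
Scg2 (chr1:79440007-79440176, minus strand): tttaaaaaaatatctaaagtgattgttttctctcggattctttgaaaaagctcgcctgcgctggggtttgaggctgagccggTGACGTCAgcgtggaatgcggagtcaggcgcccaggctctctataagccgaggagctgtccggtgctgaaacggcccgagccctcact
Cartpt (chr13:99900664-99900833, minus strand): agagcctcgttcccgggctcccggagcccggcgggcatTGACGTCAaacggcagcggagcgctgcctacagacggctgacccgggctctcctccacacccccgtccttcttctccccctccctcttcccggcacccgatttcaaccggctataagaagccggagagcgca
Dusp8 (chr7:142095265-142095434, minus strand): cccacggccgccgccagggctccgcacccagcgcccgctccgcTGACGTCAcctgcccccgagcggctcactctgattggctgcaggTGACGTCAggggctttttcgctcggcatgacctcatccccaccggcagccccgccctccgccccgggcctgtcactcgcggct
A further 3 motifs were searched in the same way, with overlaps between motifs allowed. The AP-1 site TGANTCA was in 4.00% of the promoters of higher genes and 5.30% of those tested, the antioxidant response element core TGACNNNGC in 12.8% and 13.5%, and the E-box CACGTG in 8.80% and 9.32%.

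**Figure D1:**
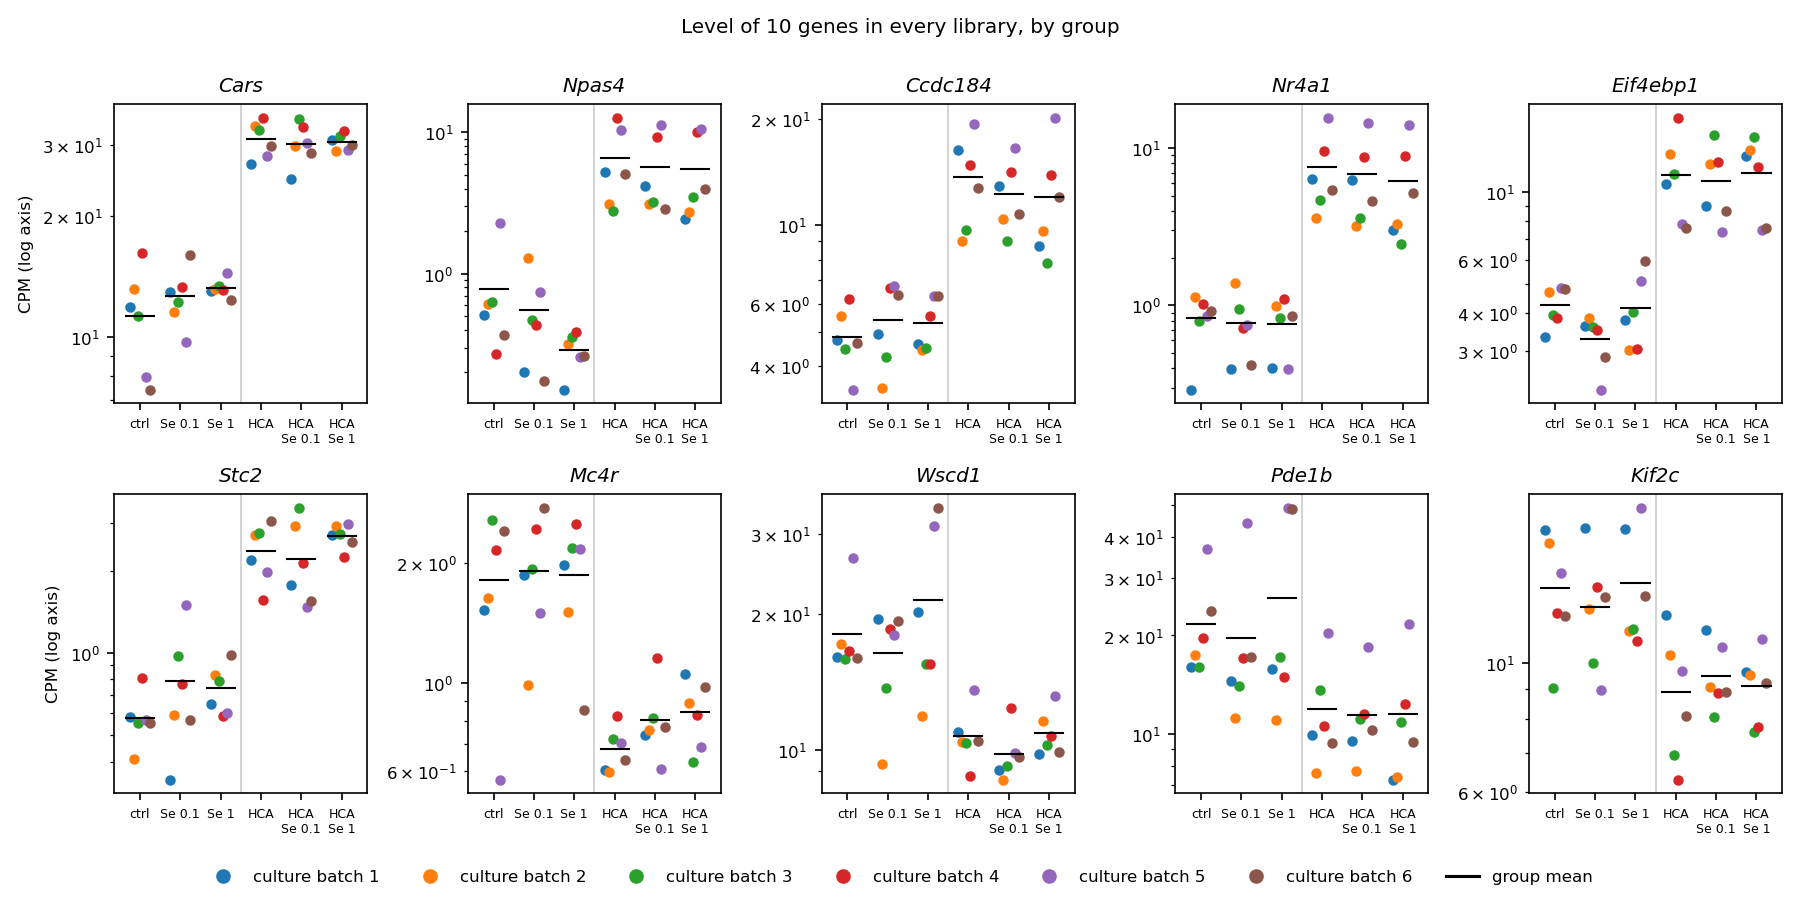
Level of 10 genes in each of the 36 libraries, in CPM on a log axis, by group (ctrl, untreated control; Se, selenite at the labelled dose). Points are libraries coloured by culture batch and black lines are group means. Cars, Npas4, Ccdc184, Nr4a1 and Eif4ebp1 show no overlap between the sides, while Mc4r, Wscd1, Pde1b and Kif2c are lower with HCA and overlap.

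Several of the genes with the smallest p belong to no list. Ccdc184 (2210010C04Rik; chr15:98167158-98170134, plus strand) encodes a coiled-coil protein. Without HCA, the lowest, median and highest libraries stood at 3.42, 4.68 and 6.17 CPM (control), 3.46, 5.63 and 6.73 (selenite 0.1) and 4.45, 5.08 and 6.31 (selenite 1). In the HCA groups these values were 9.05, 13.8 and 19.4 CPM (no selenite), 9.02, 11.8 and 16.6 (selenite 0.1) and 7.81, 10.9 and 20.2 (selenite 1). It rose by 1.25 ± 0.09 (adjusted p = 1.80e-10) with no overlap between the sides. Hsd17b12, an enzyme of fatty acid elongation, rose by 0.82 ± 0.09 (Alkbh3os1, adjusted p = 7.98e-07), with 6.73 to 21 CPM (median 16) in the libraries without HCA and 22.8 to 35.2 CPM (median 26.8) in those with it. Siah2, a ubiquitin ligase, rose by 0.76 ± 0.09 (Penk, adjusted p = 1.11e-06), with 2.98 to 6.61 CPM (median 4.71) in the libraries without HCA and 6.93 to 10.04 CPM (median 7.86) in those with it. Neither gene's sides overlapped. Gmeb2, a DNA-binding cofactor of the glucocorticoid receptor, rose by 0.62 ± 0.09 (Sox30, adjusted p = 5.19e-05).

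Cholesterol synthesis genes, targets of the factor SREBP2, had a median log2 fold change of 0.69 over 9 tested members of a list of 23, of which 2 rose and 0 fell. Of all named genes 1.77% rose and 1.01% fell. Fdps, which makes farnesyl diphosphate, rose by 1.72 ± 0.28 (Rnu3a, adjusted p = 2.91e-04), with 0 to 9.91 CPM (median 3.16) in the libraries without HCA and 5.15 to 21.9 CPM (median 13.6) in those with it. Msmo1, a sterol oxidase, passed at low counts (Chn1os3, log2 1.14 ± 0.29, adjusted p = 0.0315) and lost its call in 8 of 16 alternatives. Hmgcs1, an early enzyme of the pathway, did not pass, at 0.48 ± 0.19 (Gm22253, adjusted p = 0.215). Rows shared with other genes that passed as higher include those of Insig1 with Nfya at 0.68 ± 0.10 (6330549D23Rik), Msmo1 with Tfdp1 at 0.72 ± 0.12 (Klhl2) and Fdft1 with Lipg at 0.39 ± 0.09 (Chil5). Within single culture batches the median of the 9 ran from 0.14 to 1.50.

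Genes of selenium and of oxidative defence mostly did not pass, where 2.78% of all named genes passed. Of 14 tested genes for selenoproteins and selenium handling, 1 rose, Selenoo, a mitochondrial selenoprotein that adds AMP to other proteins, by 0.71 ± 0.11 (Gm24966, adjusted p = 1.06e-04). The list's median was 0.16. Of 9 tested genes of glutathione and of the defence against ferroptosis (cell death through iron and oxidised lipids), on a list of 20, 1 rose, the Slc3a2 already named (median 0.30). Gpx4, which removes lipid hydroperoxides, stood at 0.22 ± 0.34 (Dio3), Gclm, for glutathione synthesis, at 0.36 ± 0.20 (Btbd35f12), and the ferritin heavy chain gene Fth1 at 0.28 ± 0.08 (Fads2, adjusted p = 0.0785). Among targets of the antioxidant factor Nrf2, 0 of 6 tested on a list of 20 passed (median 0.18). The unfolded protein response of the endoplasmic reticulum had 0 of 8 (list of 21, median 0.12) and heat shock proteins 0 of 5 (list of 12, median 0.12). Glycolysis and hypoxia had 0 of 11 (list of 21, median 0.08) and p53 targets 0 of 5 (list of 16, median 0.21). With 2.78% of all named genes past the threshold, 0 of so few members does not set these lists apart. Counting every row that holds a member, shared rows included, 3 of 44 rows of the unfolded protein response rose and 0 fell. They are a row of Herpud1, a factor of protein degradation at that compartment, with others at 0.91 ± 0.07 (Gstcd), higher in 18 of 18 pairs without overlap, a further Herpud1 row at 0.68 ± 0.17 (Cntnap4), and that of the ubiquitin ligase gene Syvn1 with Unc13a at 0.37 ± 0.08 (Il33). By the same count 3 of 83 rows rose and 0 fell for glycolysis and hypoxia, 1 rose and 1 fell of 34 for p53 targets, 0 rose and 2 fell of 42 for Nrf2 targets, and 0 of 31 passed for heat shock proteins. For glutathione and the defence against ferroptosis 3 rose and 1 fell of 55. Over all rows tested 1.51% rose and 0.723% fell. Hyou1, a chaperone of that compartment, stood at 0.11 ± 0.12 (Kirrel3os), Hspa8, a constitutive chaperone, at 0.22 ± 0.11 (Hist3h2bb-ps), and the kinase inhibitor gene Cdkn1a at 0.43 ± 0.18 (Nus1). Proteins encoded by mitochondrial DNA had 11 of 12 tested members below 0 and a median of -0.35, with 0 past the threshold. Of 7 tested metallothioneins and zinc transporters, 1 fell, the metal exporter Slc30a10 at -0.78 ± 0.16 (Olfr564, adjusted p = 0.00478, and 0.0509 without culture batch 3). Mt3, the brain metallothionein, stood at -0.46 ± 0.14 (Mt2, adjusted p = 0.0795).

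**Figure D2:**
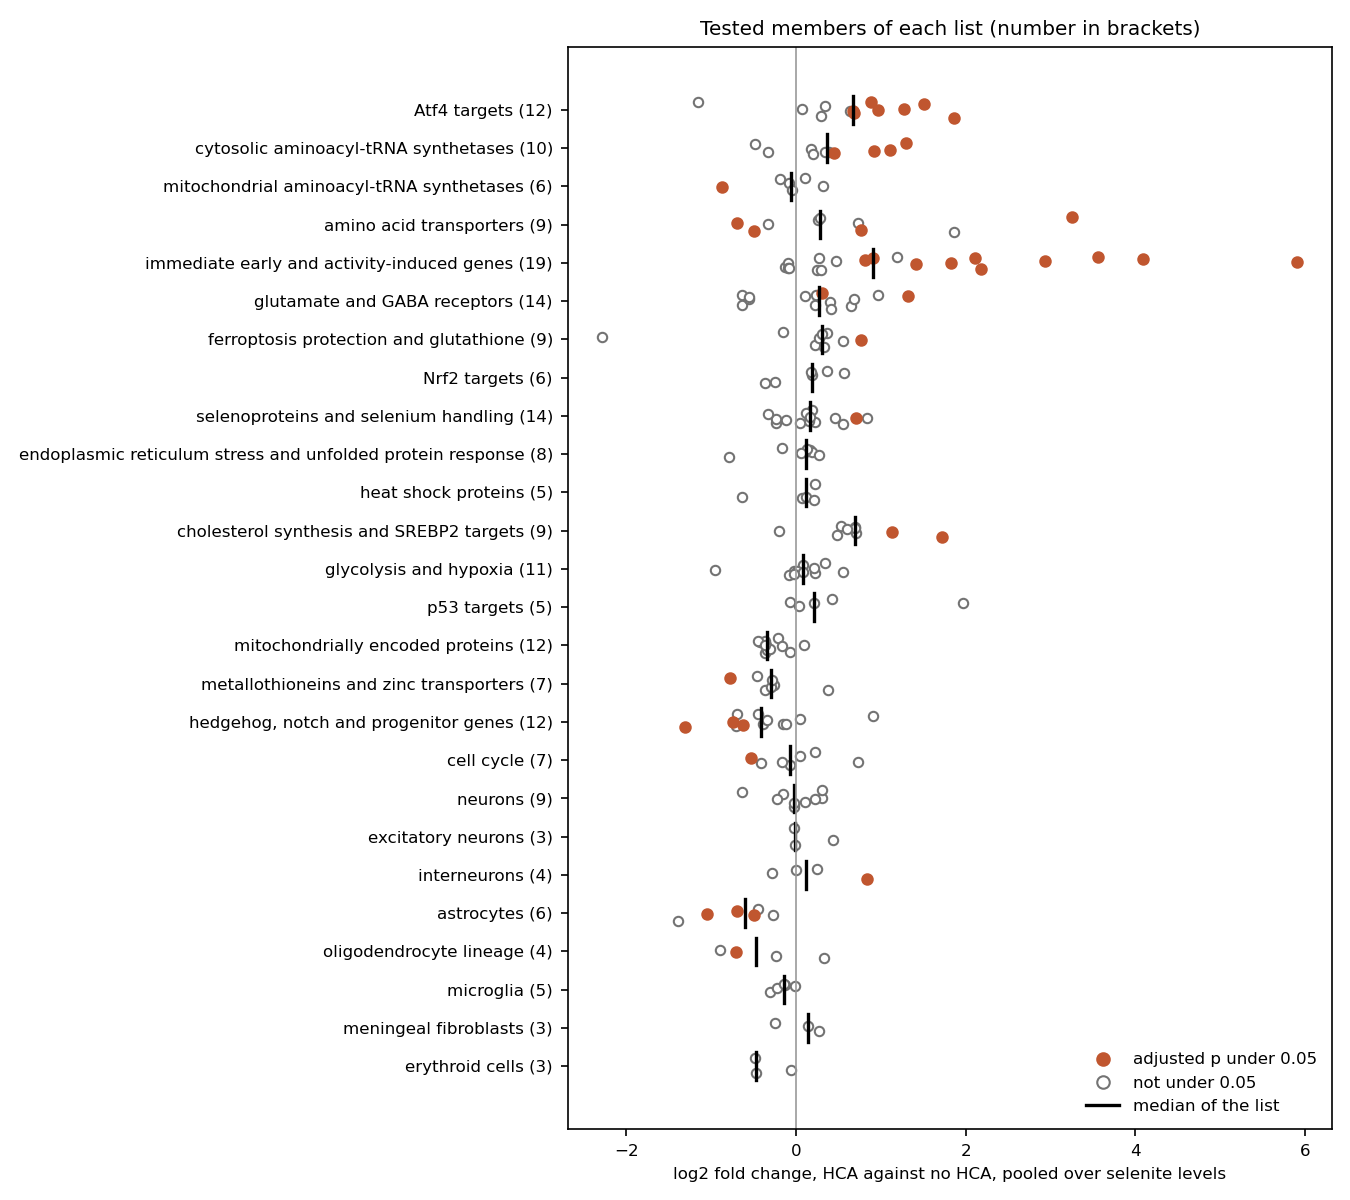
Log2 fold change with HCA of every tested member of each gene list and cell type marker list with 3 or more tested members, from the pooled fit. Filled points had an adjusted p under 0.05, and bars are list medians. The activity and Atf4 lists hold the most filled points to the right of 0, and the astrocyte and progenitor lists hold filled points to the left.

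The lower genes with the smallest p hold receptors, enzymes and a mitotic motor, and their levels overlapped between the sides. Mc4r (Ugt8a) encodes the melanocortin-4 receptor. Its lowest, median and highest levels were 0.570, 1.90 and 2.57 CPM in control, 0.990, 1.90 and 2.76 in selenite 0.1 and 0.855, 2.07 and 2.51 in selenite 1. With HCA they were 0.597, 0.672 and 0.823 CPM without selenite, 0.608, 0.767 and 1.16 at selenite 0.1 and 0.631, 0.859 and 1.05 at selenite 1. It fell by 1.26 ± 0.16 on the log2 scale (SE, adjusted p = 4.92e-06) and was lower in 16 of 18 pairs, with control replicate 5 below all HCA libraries. Wscd1 (Obox6; chr11:71749920-71789647, plus strand) was lower in 18 of 18 pairs, at -0.79 ± 0.10 (adjusted p = 8.77e-06). Control libraries had a lowest, median and highest level of 15.9, 16.3 and 26.5 CPM, those with selenite 0.1 of 9.30, 18.2 and 19.5, and those with selenite 1 of 11.9, 17.8 and 34.3. Addition of HCA gave 8.79, 10.4 and 13.6 CPM, and 8.60, 9.43 and 12.4 and 9.82, 10.5 and 13.2 beside selenite 0.1 and 1. The libraries of culture batch 2 with selenite alone fell within the range of the HCA libraries, and the others without HCA lay above it. Pde1b (Ppp1r1a; chr15:103503034-103530052, plus strand) encodes a phosphodiesterase activated by calcium and calmodulin. Without HCA, the lowest, median and highest libraries stood at 16, 18.6 and 36.8 CPM (control), 11.2, 15.8 and 44.1 (selenite 0.1) and 11, 16.5 and 49.1 (selenite 1). In the HCA groups these values were 7.61, 10.3 and 20.3 CPM (no selenite), 7.72, 10.7 and 18.4 (selenite 0.1) and 7.27, 10.2 and 21.7 (selenite 1). It changed by -0.87 ± 0.11 (adjusted p = 9.73e-06) and was lower in 18 of 18 pairs, while culture batch 5 was high on both sides. Kif2c (Hhipl2; chr4:117159639-117182639, minus strand) encodes a kinesin of the mitotic centromere. Its lowest, median and highest levels were 9.06, 13.2 and 16.9 CPM in control, 8.97, 12.7 and 17 in selenite 0.1 and 10.9, 12.2 and 18.4 in selenite 1. With HCA they were 6.30, 8.88 and 12.1 CPM without selenite, 8.07, 9.01 and 11.4 at selenite 0.1 and 7.60, 9.38 and 11 at selenite 1. It changed by -0.53 ± 0.07 (adjusted p = 1.86e-05) and was lower in 17 of 18 pairs, with overlap.

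Genes of glia and of neural progenitors were among those that fell. Of 12 tested hedgehog, notch and progenitor genes on a list of 25, 3 fell and 0 rose, with a median of -0.42. Of all named genes 1.01% fell and 1.77% rose. Gli1, the transcriptional output of hedgehog signalling, was at -1.31 ± 0.20 (Ddit3, adjusted p = 9.05e-05), with 0 to 6.17 CPM (median 2.94) in the libraries without HCA and 0.371 to 2.14 CPM (median 1.29) in those with it. S1pr1, a lysophospholipid receptor, was at -0.75 ± 0.12 (Phf13, adjusted p = 2.17e-04), and Sall3, a zinc finger factor, at -0.63 ± 0.11 (Nccrp1). Hes5, a notch target, stood at -0.71 ± 0.24 (Olfr1445, adjusted p = 0.132) and Nes, the progenitor filament nestin, at -0.70 ± 0.24 (Gm16101, adjusted p = 0.136), neither past the threshold. Hopx at -0.34 ± 0.40 (Gm13494), Ptch1 at -0.16 ± 0.19 (Msx2) and Ptprz1 at 0.05 ± 0.25 (Psma5) had the largest p of that list. Of 6 tested astrocyte markers 3 fell and 0 rose, and all 6 were below 0 (median -0.60). Mlc1, a membrane protein of astrocyte endfeet, was at -1.05 ± 0.16 (Gm6685, adjusted p = 7.36e-05), with 5.64 to 30.0 CPM (median 9.92) in the libraries without HCA and 3.09 to 14.4 CPM (median 4.42) in those with it, beside the transporters Slc1a3 and Slc1a2 given above. Olig2, a factor of the oligodendrocyte lineage, was lower in 18 of 18 pairs at -0.70 ± 0.11 (Ccar2, adjusted p = 1.59e-04), while the chondroitin sulphate proteoglycan gene Cspg4 of the same lineage stood at 0.32 ± 0.15 (Trim62). Of the 4 tested markers of that lineage 3 were below 0, with a median of -0.47, and their summed level was lower in 11 of 18 pairs. In bulk RNA, fewer cells of a type and less RNA per cell cannot be told apart.

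Summed over the 6 tested astrocyte markers, libraries without HCA ranged from 35.6 to 78.3 CPM (median 51.4) and HCA libraries from 17.5 to 55.9 (median 29.8). The sum was lower with HCA in 16 of 18 pairs. In the 2 other pairs, both of culture batch 5, the library without HCA was one of the 3 distant ones. The 9 tested neuronal markers, led by the tubulin gene Tubb3, ranged from 611 to 1324 CPM (median 873) without HCA and from 792 to 1393 (median 1025) with it, higher in 15 of 18 pairs. Singly, 4 of the 9 were above 0 and 5 below, with a median log2 fold change of -0.03, and 0 passed. Of 4 tested interneuron markers, Gad1, the GABA-synthesising enzyme gene, rose by 0.83 ± 0.15 (Ccdc173, adjusted p = 9.93e-04), while Slc32a1, the vesicular GABA transporter, stood at 0.24 ± 0.10 (Zxdc) and Dlx1 at -0.29 ± 0.15 (Eri3). The sum of the 4 was higher with HCA in 16 of 18 pairs, although singly 2 were above 0 and 2 below. A row of the interneuron marker Sst with other genes rose by 1.08 ± 0.14 (Sin3b) in 18 of 18 pairs. Markers of excitatory neurons (0 of 3), microglia (0 of 5), endothelial cells (0 of 1), erythroid cells (0 of 3) and meningeal fibroblasts (0 of 3) did not pass. The fibroblast markers Col1a2, Col3a1 and Lum summed to between 2.65 and 174 CPM without HCA and between 4.76 and 202 with it, with the highest values in culture batch 3. The astrocyte markers fell beside progenitor genes in these embryonic cultures, and the cells that hold them were not identified. Whether the share of such cells has a part in the lower values of glial and progenitor genes was not tested.

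**Figure D3:**
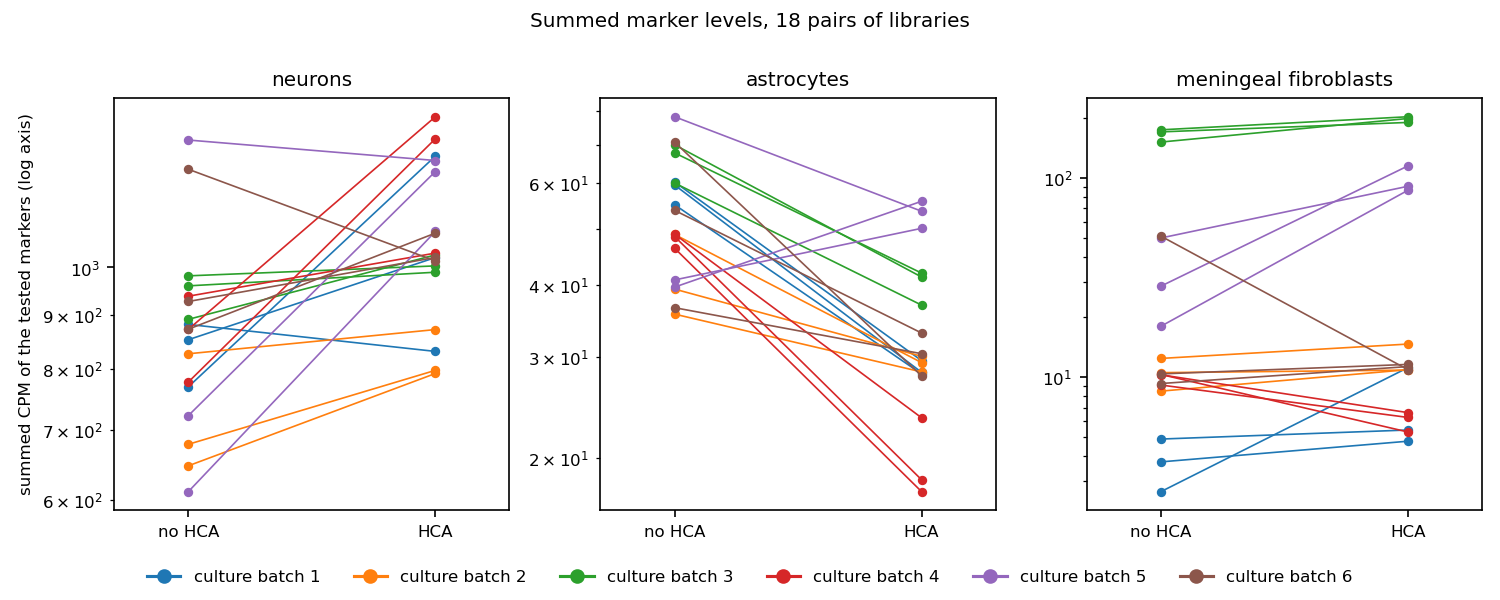
Summed CPM of the tested markers of neurons (9), astrocytes (6) and meningeal fibroblasts (3), on a log axis, in the 18 pairs of libraries that share a culture batch and a selenite level. Lines join the library without HCA to its HCA partner, coloured by culture batch. The astrocyte sum is lower with HCA in 16 of 18 pairs and the neuronal sum, largely Tubb3, higher in 15 of 18 although 5 of its 9 markers were below 0, and culture batch 3 has the highest fibroblast sums.

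The other genes with the smallest p among those that fell belong to no list. Tril, a partner of a toll-like receptor that is known in astrocytes, was at -1.17 ± 0.19 (3110082J24Rik) and Faim2, an inhibitor of Fas-mediated death in neurons, at -0.96 ± 0.16 (Aqp2). Tpcn1, a cation channel of endolysosomes, was at -0.77 ± 0.12 (Rnf113a1), Efs, an adaptor of Src kinases, at -0.76 ± 0.13 (Ngdn), and Hdac1, a histone deacetylase, at -0.65 ± 0.11 (Rbbp4). Rhbdl3, a rhomboid family protein, was at -0.62 ± 0.10 (Rnf135). Their adjusted p lay between 9.14e-05 and 6.85e-04. Of 7 tested cell cycle genes 1 fell, the Kif2c already given, with a median of -0.07. Ccnb1, the mitotic cyclin, stood at -0.07 ± 0.10 (Gm10109) and Cdk1 at 0.23 ± 0.12 (Gm11667). Rows shared with other genes that passed as lower include those of Gfap with Bpifa2 at -1.36 ± 0.28 (2700046A07Rik), Hes1 with Cdk8 at -0.61 ± 0.12 (Zfp263), Smo with Arhgef19 at -0.40 ± 0.09 (Crnkl1) and Mt1 with Reep1 at -0.86 ± 0.18 (Slc12a3). In the other direction, the row of the astrocyte connexin gene Gja1 with Arg2 and Tardbp rose by 0.45 ± 0.10 (Zfp36l1), and that of Id1, an inhibitor of bHLH factors, with others by 0.50 ± 0.09 (Cipc). Over all rows that hold a member, 1 rose and 6 fell of 40 for astrocyte markers, and 1 rose and 7 fell of 51 for hedgehog, notch and progenitor genes. Of all rows tested 1.51% rose and 0.723% fell.

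Whether selenite altered the response to HCA was asked with the interaction of HCA and selenite level in the same fit. With edgeR 0 of 25588 rows (0.0%) passed, and 469 (1.83%) had an unadjusted p under 0.05. Without the 3 distant libraries these counts were 0 and 609. Without the block 0 rows passed and without culture batch 3, 1. The share of 1.83% lies below the 0.05 expected if no row differed, so the test appears conservative in these libraries. That 0 rows passed therefore does not show that the response is alike at the 3 levels. The smallest p belonged to Acbd4 (Gm7336), an acyl-CoA binding protein gene, with an adjusted p of 0.878. Per1 had the widest spread over the levels among the 20 genes with the smallest p that rose, at 3.13 ± 0.54 without selenite, 1.27 ± 0.47 at 0.1 and 1.07 ± 0.45 at 1 (edgeR interaction, adjusted p = 1.00). Over the 126 higher genes the median log2 fold change was 0.75 at selenite 0, 0.67 at 0.1 and 0.55 at 1. For the 72 lower genes it was -0.59, -0.64 and -0.65. Since the genes were chosen on the pooled effect these medians are a description with no test. Cars, for example, stood at 1.45 ± 0.13, 1.24 ± 0.13 and 1.20 ± 0.13. The ribosomal RNA share was most uneven between the sides at selenite 0, and its part in these values was not tested.

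**Figure D4:**
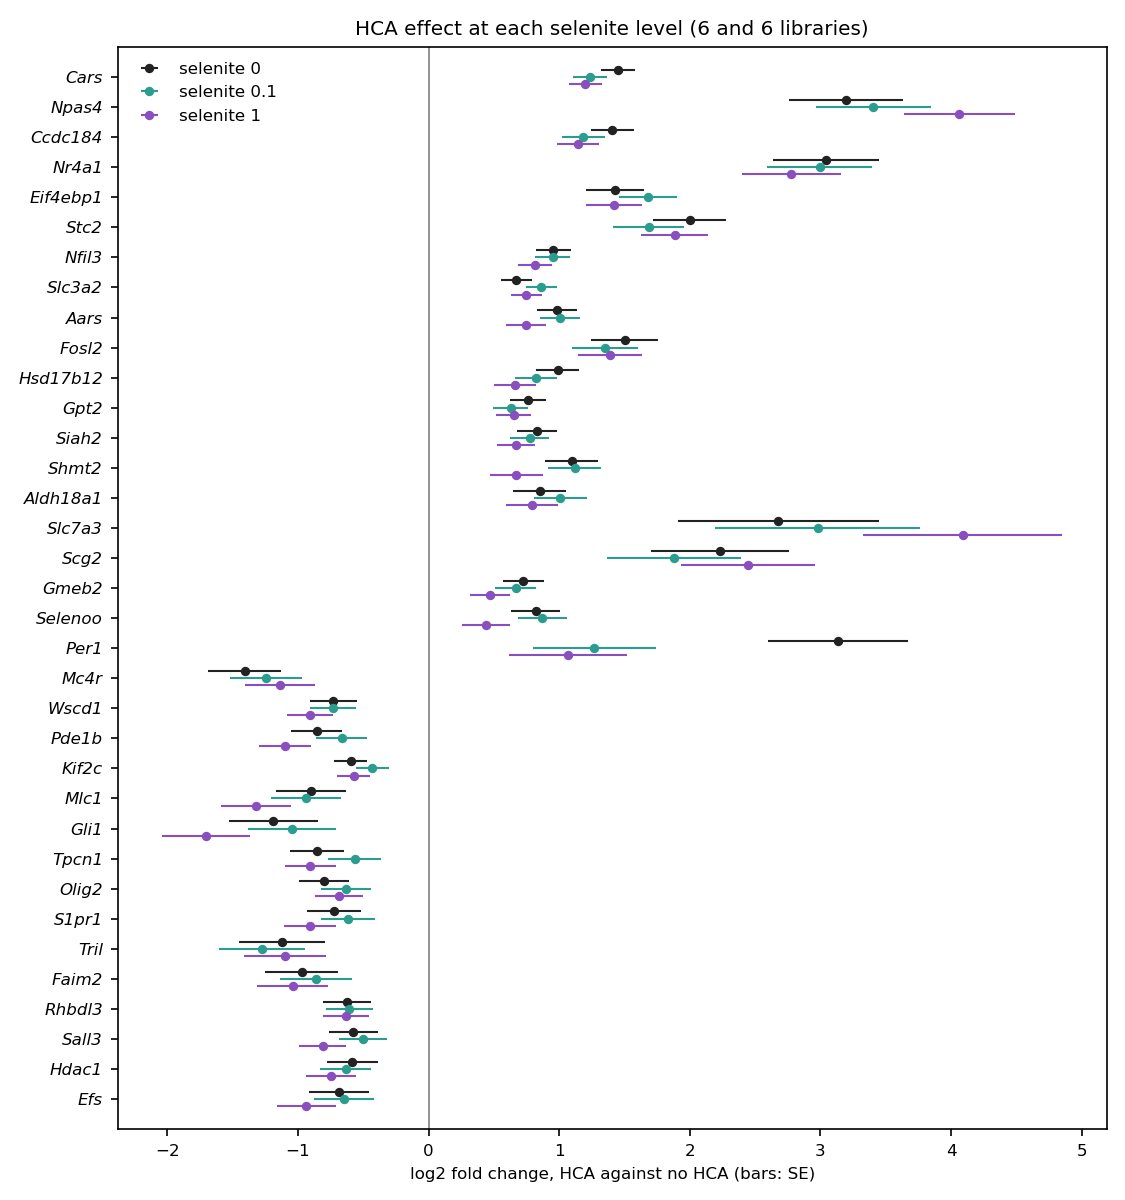
Log2 fold change with HCA at each selenite level (6 and 6 libraries) for the 20 higher and 15 lower named genes with the smallest p, with standard errors as bars. Each gene keeps its sign at the 3 levels, and for Per1 the effect without selenite, 3.13, lies above those at 0.1 and 1.

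The response differed between culture batches in 965 rows (3.77%), and in 26 of the 571 rows changed by HCA (4.55%). Nr4a1 had an effect of 1.55 in culture batch 2 and 4.84 in culture batch 5 (adjusted p of the difference 0.00378), and Fosl2 ran from 0.70 in culture batch 3 to 2.48 in culture batch 5 (adjusted p = 0.00844). Eif4ebp1 went the other way, from 0.78 in culture batch 5 to 2.02 in culture batch 4 (adjusted p = 0.0437). All 3 rose in each of the 6 culture batches. Of the 5 genes with the smallest p of that test, the 4 other than Nr4a1 were lowest in culture batch 4 and highest in culture batch 5. They were Col11a1, a fibrillar collagen (-1.69 and 2.32, Lyz1), Slc1a3 (-1.78 and 0.71), the replication helicase subunit Mcm4 (-0.91 and 0.93, Snai2) and the nucleolar helicase Ddx21 (-0.98 and 1.02, Rnf225). Culture batch 5 holds 2 of the 3 distant libraries, control and selenite 0.1. Without them its only library without HCA is that with selenite 1, so no count between culture batches is given for that setting. For Col11a1, Mcm4 and Ddx21 the pooled effect did not pass, at 0.18 ± 0.23, -0.01 ± 0.13 and -0.03 ± 0.14.

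**Figure D5:**
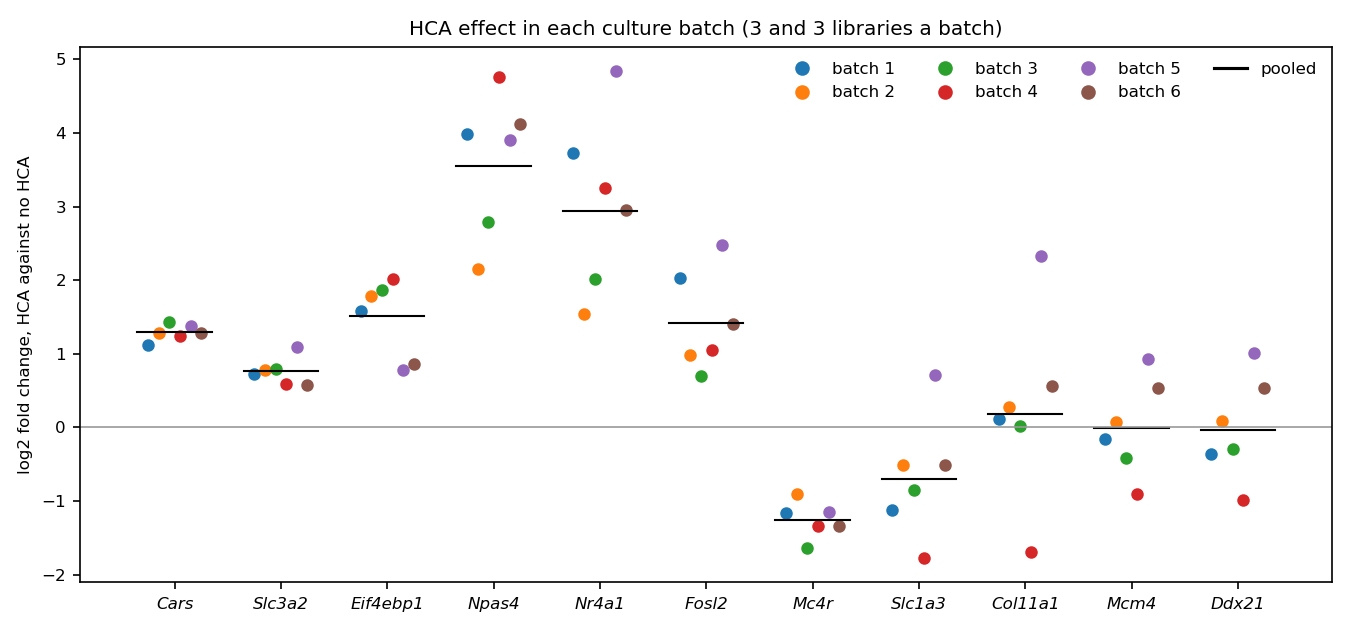
Log2 fold change with HCA in each of the 6 culture batches (points, 3 and 3 libraries each) and pooled (lines) for 11 genes. Cars and Slc3a2 lie close together over the culture batches, Nr4a1 and Fosl2 spread with culture batch 5 highest, and Slc1a3, Col11a1, Mcm4 and Ddx21 run from culture batch 4, lowest, to culture batch 5, highest.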

How the data were processed

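Estimated counts per gene identifier were deposited by the authors for all 36 libraries. The submitters' processing notes name STAR, Salmon and GRCm38; versions, settings and strand are not given in the sources used here. Counts were rounded to whole numbers. Identifiers were matched to GENCODE vM21 on GRCm38, and names taken at the 1-place displacement from rows with 1 coding gene. Rows were kept by filterByExpr and scaled by TMM, and edgeR 4.0.16 (quasi-likelihood, R 4.3.3) was fitted to all 6 groups with culture batch as a block. The HCA effect is the mean of 3 HCA groups minus that of the 3 others, in log2, with Benjamini-Hochberg adjustment over 25588 rows and a threshold of 0.05. Batch effects used a fit with HCA by batch. The block rests on the labels, which give culture batches. Deviations of same-batch libraries had a median correlation of 0.067, against -0.014 between batches. The fit was tested on simulated data drawn with no culture batch effect, which does not bear on the block or on differences between batches. Alternatives were limma 3.58.1, DESeq2 1.42.0, other scaling, filters, blocks and libraries left out. Named genes are the 20 higher and 15 lower with the smallest p, list members past the threshold, and the 3 list members with the largest p; others named were chosen after their values were seen. The members and lists were chosen with earlier results of these data known. Some genes and row symbols are not reported here.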

Additional observations from a re-analysis of the deposited data

Results flagged for a closer look

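Most of the values singled out as far from the other 5 libraries of their group come from culture batch 5. Npas4 stood at 2.28 CPM in control replicate 5, against 0.629 in the next library of that group. Wscd1 stood at 26.5 CPM in control replicate 5 (next 17.2) and at 12.4 CPM in replicate 4 of HCA with selenite 0.1 (next 9.87). Pde1b was high in replicate 5 of 4 groups, at 36.8 CPM in control (next 23.7), 44.1 in selenite 0.1 (17.2), 18.4 where HCA and selenite 0.1 were combined (11.6) and 21.7 for HCA plus selenite 1 (12.3). Control replicate 5 and selenite 0.1 replicate 5 are also among the 3 libraries distant from the rest. For library composition, control replicate 3 had the lowest ribosomal RNA share of its group, 45.8% (next 78.4%), and with it the highest count outside ribosomal RNA, 25.5 M (next 8.47 M). In all 72 groups of values were examined in this way, and chance singles out about 5% of groups.

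The effect of HCA differed between culture batches for 3 of the genes named by p-value, by the test of the difference itself. The adjusted p was 0.00378 for Nr4a1, 0.00844 for Fosl2 and 0.0437 for Eif4ebp1 (edgeR), and each of the 3 was higher with HCA in 6 of 6 culture batches.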

How the results depend on the processing

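The 35 genes named by p-value kept their direction and their side of the threshold in every alternative run, 17 for each and 16 for Tril. Among list members past the threshold, Lars, Msmo1, Gabbr1, Slc1a2, Slc1a3, Jdp2, Vgf, Iars and Slc30a10 were among those that lost the call in at least 1 alternative and 0 reversed. The count of 571 rows (386 higher, 185 lower) was less stable. With the replicate block of 18 pairs it was 335 (249 and 86), and without a block 413. With DESeq2-type size factors in edgeR it was 650, with 292 lower, and with a minimum of 1 CPM 653, with 299 lower. Without the 3 distant libraries it was 916, with 412 lower. Leaving out each culture batch gave 240 to 668 rows, 170 to 384 higher and 70 to 284 lower. Other tools called more, limma-voom 1229 (710 and 519), limma-voom with sample weights 2773 (1620 and 1153) and DESeq2 1746 (857 and 889). Of 171 distinct tested list members, 28 rose and 8 fell, where 1.77% of all named genes rose and 1.01% fell. Without the 3 distant libraries these counts were 31 and 10, and 2 and 3 when symbols are read as deposited. They were 16 and 4 when identifiers with 1 transcript alone are used, where fewer genes are tested. The numbers of members tested in these alternatives are not given, so the counts are not compared as shares. At selenite 1 alone 61 rows passed, and 39 without a replicate block. Between selenite levels 0 rows passed, with 0 to 1 on leaving out a culture batch and 1 without replicate 3. Between culture batches 965 rows passed, and 2205 without the 3 distant libraries. The difference in ribosomal RNA share was -21.5 to -6.81 points and that in counts outside it 1.66 to 9.06 M on leaving out each culture batch. The cause was not tested where not stated. Low counts outside ribosomal RNA in some libraries limit the test of genes such as Fosb and Bdnf.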

Other observations

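Further genes past the threshold, chosen after their values were seen, fall outside the lists, and their log2 fold changes are given with standard errors. Mthfd1l, a mitochondrial folate enzyme that works beside Shmt2, rose by 0.89 ± 0.17 (Gm15516, adjusted p = 0.00160), and Mtor, the growth kinase, by 1.28 ± 0.31 (Olfr77, adjusted p = 0.0191). Ptprn, which encodes a protein of dense core granules, rose by 0.99 ± 0.16 (Slc23a3, adjusted p = 1.97e-04) and Pnoc, the nociceptin precursor, by 0.65 ± 0.15 (Zc2hc1c, adjusted p = 0.0103). Slc11a2, an iron transporter, rose by 0.62 ± 0.13 (Efhd1os, adjusted p = 0.00665) and Slc20a1, a phosphate transporter, by 0.80 ± 0.20 (Il1b, adjusted p = 0.0197).

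Among the lower genes, Mat2a, which makes S-adenosylmethionine, was lower, at -0.41 ± 0.07 (D830025C05Rik, adjusted p = 0.00114). Others were Nrarp, a notch feedback gene, at -0.65 ± 0.14 (H2al2a, adjusted p = 0.00937), Id4, an inhibitor of bHLH factors, at -0.42 ± 0.10 (Barx1, adjusted p = 0.0144), Sox8 at -0.38 ± 0.10 (Adgre4, adjusted p = 0.0287), Ndrg2, an astrocyte gene, at -0.46 ± 0.10 (Xirp1, adjusted p = 0.00842), and Foxj1, of ciliated cells, at -0.61 ± 0.11 (Fbxl8, adjusted p = 7.01e-04). Cpt1a, which carries fatty acids toward mitochondrial oxidation, was at -0.60 ± 0.13 (Mrpl11, adjusted p = 0.00858) and the fatty acid transporter Slc27a1 at -0.50 ± 0.11 (Map1lc3b, adjusted p = 0.00832). Pik3ip1, an inhibitor of PI3 kinase, stood at -0.49 ± 0.10 (Themis2, adjusted p = 0.00315).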
